A study of Mus musculus with 12 samples.

Results

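This account covers 40 genes of cholesterol and fatty acid supply, described across 4 treatments of a mouse leukaemia. The genes were chosen by name, and each needed a mean of at least 10 normalised reads over the 12 libraries. There were 18 enzymes of sterol synthesis, 12 of fatty acid synthesis, 6 genes of sterol sensing and transport, and 4 genes of the liver X receptor (LXR) and of sterol efflux. All 40 were in the table of 24411 gene symbols and passed the mean, as did 11484 genes in all. The cells were BALB/c bone marrow cells that carried mutant CSF3R, the receptor of granulocyte colony-stimulating factor, and mutant CEBPA, a myeloid transcription factor, both brought in by retrovirus. They grew in IMDM with 20% fetal bovine serum, which itself supplies cholesterol and fatty acids, and were treated for 24 h. One group received ruxolitinib at 50 nM, which blocks the kinases JAK1 and JAK2. Another received GSK-LSD1 at 2 nM, which blocks LSD1, an enzyme that takes methyl groups off histones (gene Kdm1a). A further group received both drugs at these doses, called the combination here, and the last received the solvent DMSO. Each group had 3 libraries of total RNA. Every group, DMSO included, carried both introduced mutants, and the labels do not say whether replicates came from separate cultures, transductions or animals, so p-values measure the spread between these samples only.

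Cells make cholesterol from acetyl-CoA through the mevalonate pathway, by way of farnesyl diphosphate, squalene and lanosterol. Fatty acids come from the same acetyl-CoA, which is carboxylated, built into palmitate, then elongated and desaturated. Transcription of both branches is driven by the SREBP proteins, encoded by Srebf1 and Srebf2: when membrane sterol is low, SCAP carries them from the endoplasmic reticulum to be cut, and when sterol is high, the INSIG proteins hold them back. Oxysterols act the other way through LXR, which raises efflux pumps such as Abca1 and Abcg1. Proliferating blood cells need both products for new membrane.

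Of 18 sterol synthesis genes, 11 were lower after GSK-LSD1 and 11 after the combination than after DMSO, beside 15.5% and 21.8% of all genes. The count after GSK-LSD1 was 7 without GSK-LSD1 replicate 2 or without GSK-LSD1 replicate 3. The number of all genes lower fell as well, from 1780 to 1228 and 1258 in these 2 fits. The falls were modest, up to -0.47 on the log2 scale for Lss after GSK-LSD1 and -0.71 after the combination. The fatty acid genes were mixed: Scd1 was lowest after ruxolitinib and after the combination, Acss2 after GSK-LSD1, and Scd2 moved in opposite directions after the 2 single drugs. The LXR targets Abcg1 and Mylip were higher with GSK-LSD1, and the transcripts of Srebf1, Srebf2, Scap and Insig2 passed no test against DMSO in the main fit. In some alternative fits Srebf1, Srebf2 and Scap passed lower. These are summed RNAs of whole cultures, in which fewer cells of a type and less RNA per cell cannot be told apart.

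**Figure D1:**
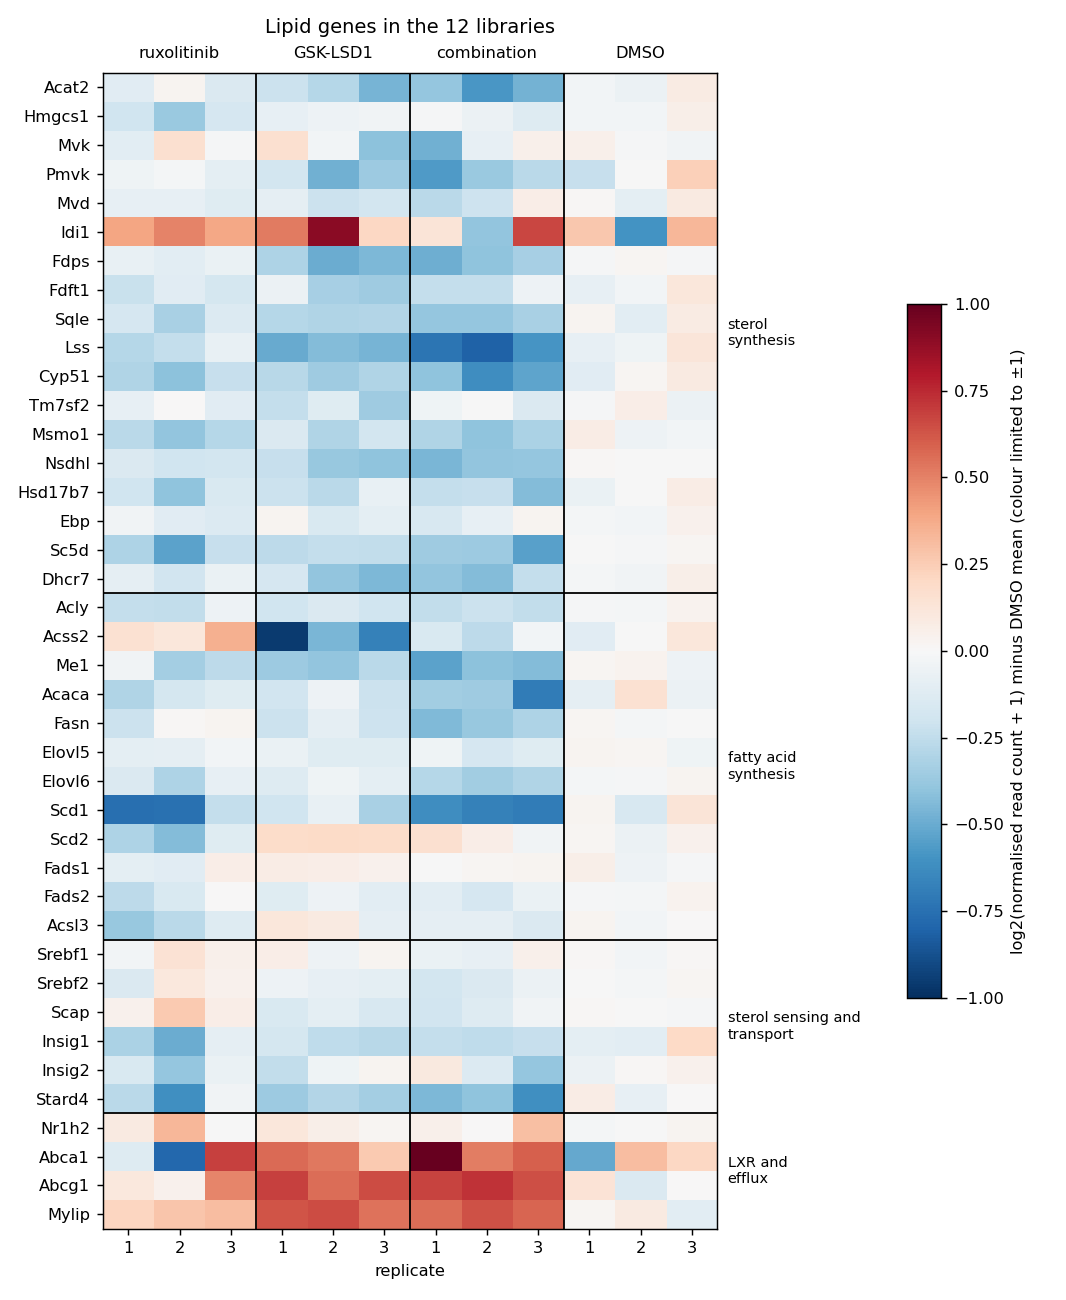
Log2(normalised read count + 1) of each of the 40 genes (rows, by group) in each of the 12 libraries (columns, by treatment and replicate), minus the gene's mean in the 3 DMSO libraries. Blue is lower and red is higher than DMSO, limited to ±1, and the colour shows a blue block for Lss and its neighbours under GSK-LSD1 and the combination, and red for Abcg1 and Mylip.

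The sequences upstream of 6 members are shown first. SREBP is known to act on DNA with the factor NF-Y, and whether it acts on these 6 sequences was not tested. They are the 250 bases before the RefSeq start on GRCm38.p6, read along the gene's strand. Capitals mark each copy of CCAAT, the NF-Y box (ATTGG on the other strand), and the single copy of TCACNCCAC, a sterol regulatory element. Hmgcs1, Lss, Cyp51 and Msmo1 stand for the sterol branch, Acss2 is the gene with the largest fall after GSK-LSD1, and Mylip rose.
Hmgcs1 (chr13:119690101-119690350, plus strand): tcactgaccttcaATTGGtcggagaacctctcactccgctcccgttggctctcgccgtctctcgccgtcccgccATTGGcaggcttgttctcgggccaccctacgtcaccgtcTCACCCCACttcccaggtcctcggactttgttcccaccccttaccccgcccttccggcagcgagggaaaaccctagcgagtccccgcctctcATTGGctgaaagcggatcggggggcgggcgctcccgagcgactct
Lss (chr10:76531355-76531604, plus strand): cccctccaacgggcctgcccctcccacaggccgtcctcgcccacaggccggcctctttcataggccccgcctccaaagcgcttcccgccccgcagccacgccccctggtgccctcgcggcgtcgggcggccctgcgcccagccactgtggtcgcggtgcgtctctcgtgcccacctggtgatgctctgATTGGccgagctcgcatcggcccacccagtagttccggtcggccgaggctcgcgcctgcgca
Cyp51 (chr5:4104698-4104947, minus strand): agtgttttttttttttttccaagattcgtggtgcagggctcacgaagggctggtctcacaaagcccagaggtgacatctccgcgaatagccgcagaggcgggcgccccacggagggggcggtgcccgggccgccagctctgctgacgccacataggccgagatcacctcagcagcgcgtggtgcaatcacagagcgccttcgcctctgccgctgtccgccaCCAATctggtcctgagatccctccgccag
Msmo1 (chr8:64733579-64733828, minus strand): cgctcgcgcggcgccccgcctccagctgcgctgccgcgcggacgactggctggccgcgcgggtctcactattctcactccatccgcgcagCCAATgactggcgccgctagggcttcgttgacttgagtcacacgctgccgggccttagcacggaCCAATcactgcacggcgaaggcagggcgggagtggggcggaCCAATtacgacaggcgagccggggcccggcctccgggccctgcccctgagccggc
Acss2 (chr2:155517793-155518042, plus strand): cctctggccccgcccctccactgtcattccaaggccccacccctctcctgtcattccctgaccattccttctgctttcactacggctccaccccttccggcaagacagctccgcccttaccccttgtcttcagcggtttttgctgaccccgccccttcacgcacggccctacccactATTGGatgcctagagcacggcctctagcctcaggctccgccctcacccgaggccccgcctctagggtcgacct
Mylip (chr13:45389492-45389741, plus strand): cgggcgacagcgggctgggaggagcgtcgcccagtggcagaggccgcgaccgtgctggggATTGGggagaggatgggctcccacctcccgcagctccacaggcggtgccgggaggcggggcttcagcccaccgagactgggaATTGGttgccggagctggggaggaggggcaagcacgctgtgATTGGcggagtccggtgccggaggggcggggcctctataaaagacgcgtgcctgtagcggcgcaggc

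Windows of 300 bases, 250 before to 50 after the start, were on hand for 32 of the 40 members, some with several starts. At least 1 window held CCAAT on either strand for 25 of these 32 (78.1%), against 41.1% of all 27025 genes with a window. The shares of all genes in this paragraph include genes not expressed in these cells, whereas every member passed the mean. Shares among the genes tested were not counted, so the part of expression in these differences was not tested. It was there for 14 of 15 sterol synthesis genes, 6 of 9 fatty acid genes, 4 of 5 sensing and transport genes and 1 of 3 LXR and efflux genes. GGGCGG, the GC box bound by Sp1, stood in 14 of 15 sterol genes and 5 of 9 fatty acid genes, against 38.2% of all genes. The element TCACNCCAC, searched on both strands and with no overlap with CCAAT, stood in 1 of the 32 members, Hmgcs1, with its first base 137 bases before the start, and in 1.44% of all genes. Sterol elements with other letters were not searched for, so the other members may hold some. The palindromic E-box CACGTG stood in 7 of 32 members and 8.09% of all genes. The motifs were chosen with results of these data known. These are matches of letters and not shown binding sites, and no binding was measured.

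Values below are normalised read counts, which look like gene counts scaled by the authors library by library. Multiples of each library's smallest step summed to between 8260995 and 8528400, so depth was nearly equal if these are reads. Gene positions are those of GENCODE vM21 on GRCm38. Before the results, 2 libraries stand apart. Replicate pairs with ruxolitinib replicate 2 or combination replicate 3 differed by 6.10 to 7.18 times counting noise, against 1.48 to 2.90 for the other 8 pairs, and both lay low on principal component 2. Fold changes after ruxolitinib also ran with transcript GC content over 11020 genes (Spearman rho 0.42, across genes, which are not independent), compared with 0.11 after GSK-LSD1 and 0.21 after the combination. The median GC content of the 40 members was 50.6%, the same as that of all tested genes. By group it was 50.0% for sterol synthesis, 51.3% for fatty acid synthesis, 51.9% for sensing and transport and 51.7% for LXR and efflux. Granulocyte and progenitor markers were all present (10 of 10). They summed to 16225 to 21357.5 normalised reads in the ruxolitinib libraries, 13700.4 to 14295 in the GSK-LSD1 libraries and 20677 to 22309 in the combination libraries, against 13319 to 13825.5 in the DMSO libraries. The sums hide moves in both directions after GSK-LSD1. Prtn3 averaged 1264 (2097 in DMSO), Ctsg 605 (975), Ms4a3 134 (339) and Elane 77.5 (138). Cd34 averaged 1020 (263 in DMSO), Ptprc 1872 (1333) and Mpo 7201 (6565), and Cebpe, Csf3r and Kit were also higher. The 6 erythroid markers summed to 271 to 316 in the ruxolitinib libraries, 131 to 141 in the GSK-LSD1 libraries and 124 to 254 in the combination libraries, against 240.1 to 284 in the DMSO libraries. The part of these cell types in the sterol and fatty acid results was not tested. Adipocyte markers, of a cell rich in the same enzymes, summed to at most 4.96 normalised reads in any library, with Lep at 0 in all 12. A test passed at an adjusted p under 0.05 in limma, fitted over all 11484 genes with Benjamini-Hochberg adjustment, and log2 fold changes are on the log2(value + 1) scale with their standard error (SE). The 3 comparisons with DMSO share the same DMSO libraries, so their results are not independent of each other.

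Levels differed widely among the members. In the DMSO libraries Scd2, a stearoyl-CoA desaturase, averaged 11369 ± 426 normalised reads and Idi1, isopentenyl diphosphate isomerase, 17.9 ± 5.97 (SD, n = 3 each). Per kilobase of exon, Scd2 stood at 2081 and its paralogue Scd1 at 159.9 in DMSO. Over the 3 contrasts with DMSO together, limma's F-test called 25 of the 40 members, beside 42.8% of all genes.

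Against DMSO, ruxolitinib alone lowered a few members. It lowered 4 of 18 sterol genes, Hmgcs1, Cyp51, Msmo1 and Sc5d, and 2 of 12 fatty acid genes, Scd1 and Scd2. In all 6 of 40 members (15%) passed lower, and no member passed higher, beside 0.627% of all genes lower and 1% higher. An unadjusted p under 0.05 in limma was reached by 19 of 40 members and by 2012 of all 11484 genes tested. Taking libraries alone, 18 of 40 members had all 3 ruxolitinib libraries below all 3 DMSO libraries and 3 above, beside 12.8% and 10.9% of all genes. The sensing and transport group had 0 of 6 past the test (2 unadjusted) and the LXR and efflux group 0 of 4 (1 unadjusted). The median log2 fold change was -0.14 for sterol synthesis, -0.18 for fatty acid synthesis and -0.00 for all genes. All 6 calls were lost without DMSO replicate 3, 4 without DMSO replicate 1 and 4 without DMSO replicate 2, and without ruxolitinib replicate 2 the 1 call left was Scd1. GSK-LSD1 replicate 2 or 3 took away 3 calls when left out, GSK-LSD1 replicate 1 or combination replicate 2 took away 2, and ruxolitinib replicate 1 took away Scd2. With ruxolitinib replicate 2 and combination replicate 3 both left out, 6 members passed lower. After correction for GC content 6 passed lower and 1 higher, and all genes split 121 higher and 126 lower instead of 115 and 72.

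Against DMSO, 11 of 18 sterol genes fell after GSK-LSD1 alone, and 4 of 12 fatty acid genes fell (Acly, Acss2, Me1 and Fasn) while Scd2 rose. Over the 40 members 16 (40%) passed lower and 3 higher, beside 15.5% of all genes lower and 17% higher. All 3 GSK-LSD1 libraries lay below DMSO for 23 members and above it for 3, beside 26.5% and 24.4% of all genes. The median log2 fold change was -0.25 for sterol synthesis and -0.13 for fatty acid synthesis, while that of all genes was -0.00. Stard4 was the 1 of 6 sensing and transport genes to fall, and Abcg1 and Mylip rose among the 4 LXR and efflux genes. Leaving out GSK-LSD1 replicate 3 took away 8 of the 19 calls and DMSO replicate 3 took away 7. Each of DMSO replicates 1 and 2 and GSK-LSD1 replicates 1 and 2 took away 5, and combination replicate 2 took away Fasn and Scd2. Of the 18 sterol genes, 7 passed lower without GSK-LSD1 replicate 2 or without GSK-LSD1 replicate 3, and 8 without DMSO replicate 2 or without DMSO replicate 3. All genes lower numbered 1228, 1258, 1332 and 1232 in these 4 fits, in that order, instead of 1780. Between 11 and 20 members passed in these fits.

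The combination lowered 11 of 18 sterol genes and 6 of 12 fatty acid genes against DMSO, and raised none of either. Stard4 and Insig1 fell in the sensing and transport group, and Abcg1 and Mylip rose. In all 19 members (47.5%) passed lower and 2 higher, beside 21.8% of all genes lower and 20.5% higher. All 3 combination libraries lay below DMSO for 23 members and above it for 3, beside 26.8% and 24.9% of all genes. The median was -0.35 for sterol synthesis, -0.19 for fatty acid synthesis and -0.01 for all genes. Of these 21 calls 18 held in every alternative, and the others were Pmvk (lost without DMSO replicate 3), Hsd17b7 (without DMSO replicate 3 or combination replicate 3) and Insig1 (without DMSO replicate 3 or combination replicate 1 or 2).

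**Figure D2:**
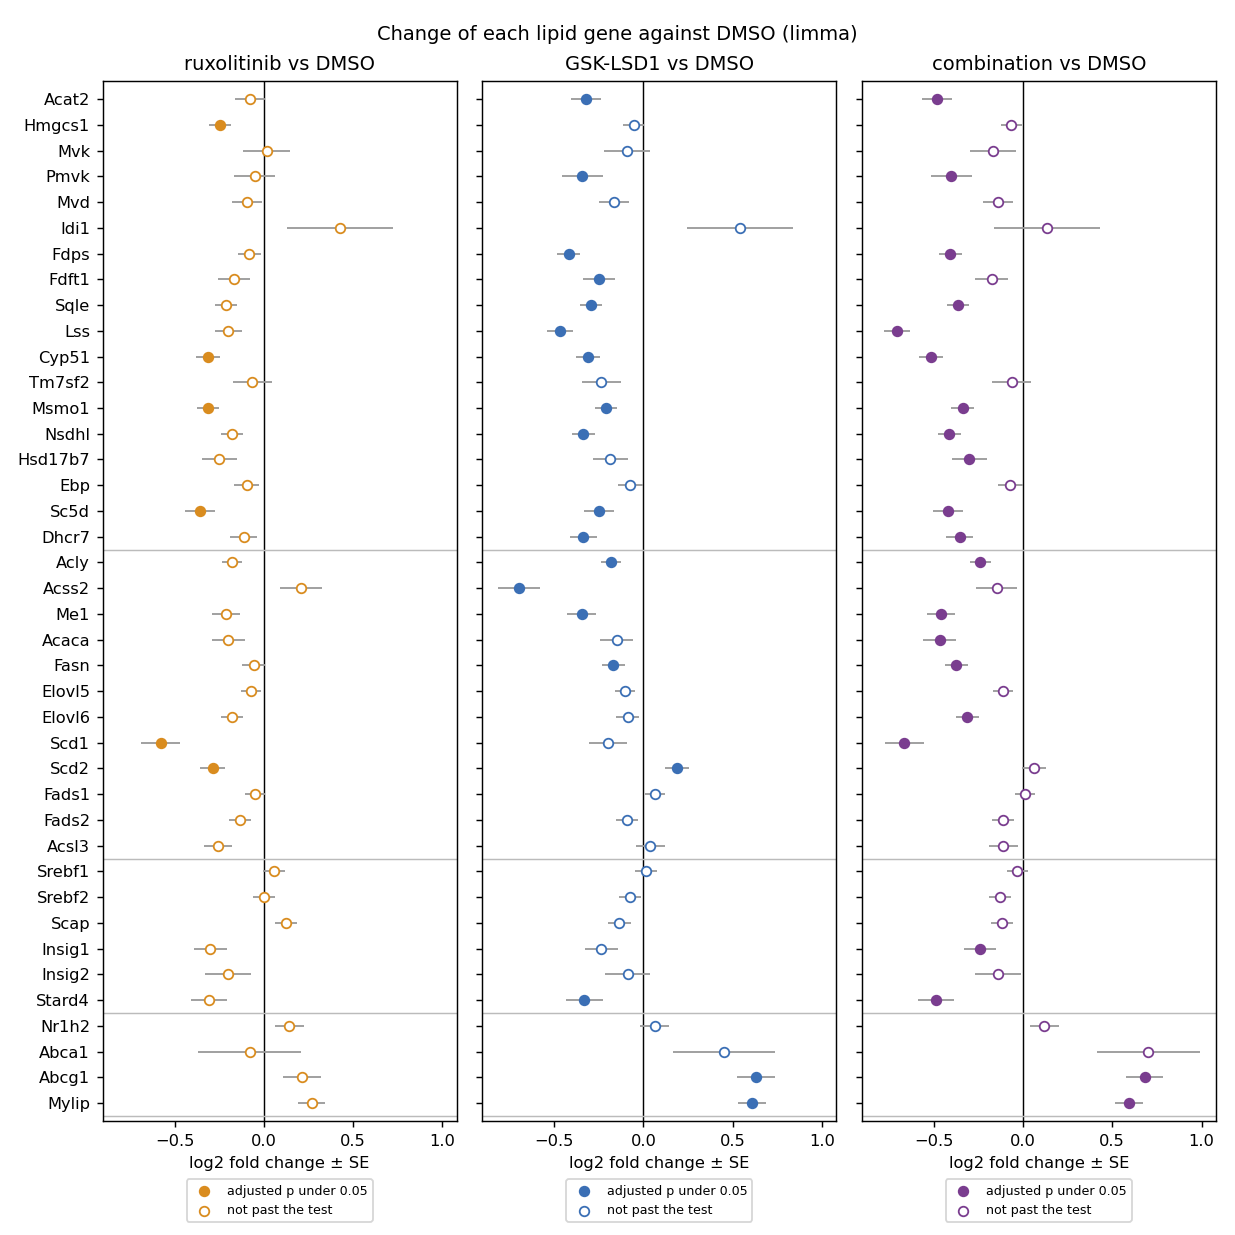
Log2 fold change ± SE (limma) of each of the 40 genes against DMSO after ruxolitinib, GSK-LSD1 and the combination; filled points passed at an adjusted p under 0.05. Filled points left of 0 number 6, 16 and 19, and those right of 0 number 0, 3 and 2.

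The sterol branch is taken here in the order of the pathway. Acat2 (acetoacetyl-CoA thiolase; chr17:12942890-12960747, minus strand) had 396, 438 and 388 normalised reads in the ruxolitinib libraries, 369.7, 352 and 311 in the GSK-LSD1 libraries, 328, 286 and 308 in the combination libraries and 422, 413 and 454 in the DMSO libraries. All 3 libraries of GSK-LSD1 and all 3 of the combination lay below all 3 DMSO libraries, whereas ruxolitinib overlapped DMSO. Its log2 fold change was -0.32 ± 0.08 SE, adjusted p = 0.00625 after GSK-LSD1 and -0.48 ± 0.08 SE, adjusted p = 0.000107 after the combination. The GSK-LSD1 call was lost without GSK-LSD1 replicate 3.

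Hmgcs1 (HMG-CoA synthase; chr13:119690379-119708260, plus strand), the next step and the gene with the sterol element shown above, had 2680.2, 2368 and 2725 normalised reads in the ruxolitinib libraries, 2905, 2962 and 3002 in the GSK-LSD1 libraries, 3051, 2953 and 2804 in the combination libraries and 3007, 3011 and 3195 in the DMSO libraries. Here ruxolitinib was lowest and did not overlap DMSO, while both groups with GSK-LSD1 came close to DMSO. The log2 fold change against DMSO was -0.25 ± 0.06 SE, adjusted p = 0.0369 after ruxolitinib, -0.05 ± 0.06 SE, adjusted p = 0.524 after GSK-LSD1 and -0.07 ± 0.06 SE, adjusted p = 0.4 after the combination. The ruxolitinib call was lost without any of the 3 DMSO or GSK-LSD1 libraries, without ruxolitinib replicate 2 and without combination replicate 2. It was also lost after GC correction, at a log2 fold change of -0.16. Compared with ruxolitinib, Hmgcs1 was higher after the combination (0.18 ± 0.06 SE, adjusted p = 0.0242), a call lost without combination replicate 1 or 2 or ruxolitinib replicate 2.

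Mvk, Mvd and Idi1 passed none of the 3 tests against DMSO, and Idi1 had at most 32.8 normalised reads in any library. Pmvk (phosphomevalonate kinase) fell after GSK-LSD1 (-0.34 ± 0.11 SE, adjusted p = 0.0257) and after the combination (-0.40 ± 0.11 SE, adjusted p = 0.00725), and both calls were lost without DMSO replicate 3. The first of them was also lost without DMSO replicate 2 and without GSK-LSD1 replicate 2 or 3. Fdps (farnesyl diphosphate synthase; chr3:89093588-89101959, minus strand), where the branch to sterols parts from those to prenyl groups, had 1003, 981 and 1004 normalised reads in the ruxolitinib libraries, 853, 746 and 769.9 in the GSK-LSD1 libraries, 751, 799 and 835 in the combination libraries and 1048, 1069 and 1046 in the DMSO libraries. Every library with GSK-LSD1, alone or combined, was below every library without it. The fold change was -0.42 ± 0.06 SE, adjusted p = 4e-05 after GSK-LSD1, and -0.41 ± 0.06 SE, adjusted p = 2.97e-05 after the combination, against -0.08 ± 0.06 SE, adjusted p = 0.534 after ruxolitinib.

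Past farnesyl diphosphate, Fdft1 (squalene synthase) fell after GSK-LSD1 (-0.25 ± 0.09 SE, adjusted p = 0.0406) but not past the test after the combination (-0.18 ± 0.09 SE, adjusted p = 0.126). The Fdft1 call was lost without DMSO replicate 2 or 3 and without GSK-LSD1 replicate 2 or 3. Sqle (squalene epoxidase), a rate-limiting step, had 1517, 1362 and 1552 normalised reads in the ruxolitinib libraries, 1406, 1383 and 1395 in the GSK-LSD1 libraries, 1308, 1306 and 1366 in the combination libraries and 1743, 1586 and 1805 in the DMSO libraries. GSK-LSD1 and combination libraries were all below DMSO, and those of ruxolitinib were too, without passing (-0.21 ± 0.06 SE, adjusted p = 0.0835). The change was -0.29 ± 0.06 SE, adjusted p = 0.00119 after GSK-LSD1 and -0.37 ± 0.06 SE, adjusted p = 8.24e-05 after the combination.

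Lss (lanosterol synthase; chr10:76531588-76557138, plus strand), which closes the ring, had 909, 942 and 1053 normalised reads in the ruxolitinib libraries, 780.3, 822 and 803 in the GSK-LSD1 libraries, 668, 634 and 738 in the combination libraries and 1047, 1078 and 1209 in the DMSO libraries. The combination libraries were the lowest, GSK-LSD1 lay between them and DMSO, and only ruxolitinib replicate 3 overlapped DMSO. Lss had the largest fall of the sterol branch in both contrasts, -0.47 ± 0.07 SE, adjusted p = 5.68e-05 after GSK-LSD1 and -0.71 ± 0.07 SE, adjusted p = 1.69e-07 after the combination. Ruxolitinib gave -0.20 ± 0.07 SE, adjusted p = 0.166. No Lss library of the combination reached any of GSK-LSD1, but the difference between these 2 groups did not pass in the main fit (-0.24 ± 0.07 SE, adjusted p = 0.138). It passed in limma after GC correction (-0.25 ± 0.07 SE, adjusted p = 0.0479).

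Cyp51 (lanosterol demethylase; chr5:4081145-4104746, minus strand) had 1437, 1328 and 1503 normalised reads in the ruxolitinib libraries, 1454, 1377 and 1435 in the GSK-LSD1 libraries, 1332, 1149 and 1225 in the combination libraries and 1632, 1791 and 1881 in the DMSO libraries. All 9 treated libraries lay below all 3 DMSO libraries. The change was -0.31 ± 0.07 SE, adjusted p = 0.0231 after ruxolitinib, -0.31 ± 0.07 SE, adjusted p = 0.00138 after GSK-LSD1 and -0.52 ± 0.07 SE, adjusted p = 3.73e-06 after the combination. The ruxolitinib call was lost without DMSO replicate 2 or 3 and without ruxolitinib replicate 2.

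Msmo1 (methylsterol monooxygenase; chr8:64718139-64733792, minus strand) had 1140.1, 1048 and 1129 normalised reads in the ruxolitinib libraries, 1245, 1117 and 1209.6 in the GSK-LSD1 libraries, 1116, 1043 and 1104 in the combination libraries and 1448, 1327 and 1353 in the DMSO libraries. Again no treated library reached the DMSO range. Its log2 fold change was -0.32 ± 0.06 SE, adjusted p = 0.0128 after ruxolitinib, -0.21 ± 0.06 SE, adjusted p = 0.014 after GSK-LSD1 and -0.34 ± 0.06 SE, adjusted p = 0.000178 after the combination. Without DMSO replicate 1 the calls after ruxolitinib and after GSK-LSD1 were lost, and the first was also lost without DMSO replicate 3 or ruxolitinib replicate 2 and the second without GSK-LSD1 replicate 2.

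Nsdhl, the sterol dehydrogenase that acts after Msmo1, fell after GSK-LSD1 (-0.34 ± 0.06 SE, adjusted p = 0.000296) and after the combination (-0.41 ± 0.06 SE, adjusted p = 1.88e-05). Sc5d (sterol C5-desaturase; chr9:42251595-42264256, minus strand) had 355, 303 and 376 normalised reads in the ruxolitinib libraries, 367, 373 and 372 in the GSK-LSD1 libraries, 344, 342 and 302 in the combination libraries and 439, 436 and 448 in the DMSO libraries. All treated libraries were below DMSO. The change was -0.36 ± 0.08 SE, adjusted p = 0.0327 after ruxolitinib, -0.25 ± 0.08 SE, adjusted p = 0.0272 after GSK-LSD1 and -0.42 ± 0.08 SE, adjusted p = 0.000395 after the combination. The GSK-LSD1 call was lost without any 1 of the DMSO or GSK-LSD1 libraries, and the ruxolitinib call without any DMSO library, GSK-LSD1 replicate 2 or 3, or ruxolitinib replicate 2.

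Dhcr7 (chr7:143823145-143848410, plus strand) makes cholesterol from 7-dehydrocholesterol, and its values were 872, 814 and 885 normalised reads in the ruxolitinib libraries, 826, 704 and 678 in the GSK-LSD1 libraries, 705, 687 and 787 in the combination libraries and 917, 903 and 964 in the DMSO libraries. The groups with GSK-LSD1 were below DMSO throughout, and ruxolitinib was below it in all libraries too but without passing (-0.11 ± 0.08 SE, adjusted p = 0.447). The fold change was -0.34 ± 0.08 SE, adjusted p = 0.00165 after GSK-LSD1 and -0.36 ± 0.08 SE, adjusted p = 0.000708 after the combination. Hsd17b7, a ketosteroid reductase of the same stretch, passed after the combination (-0.30 ± 0.10 SE, adjusted p = 0.0169), while Tm7sf2 and Ebp passed no test against DMSO. Tm7sf2 shares bases with Vps51 on the same strand, Cyp51 with Akap9 and Fdft1 with Ctsb on the other strand, and the strandedness of the counting is not given in the sources used here, so reads of these pairs may not be told apart.

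**Figure D3:**
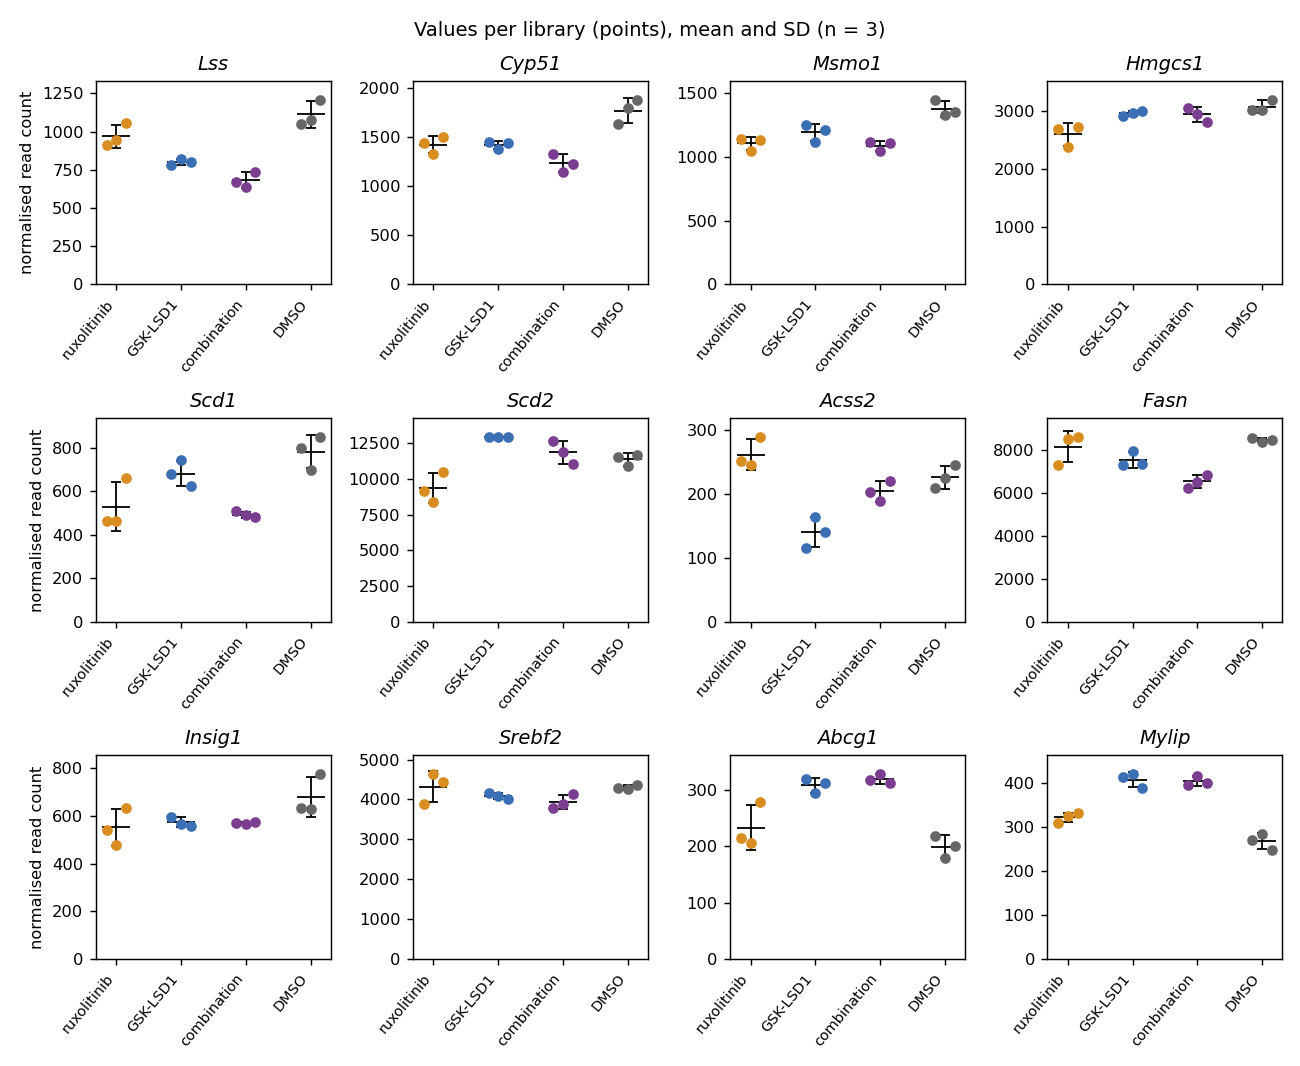
Normalised read counts of selected members, 1 panel each, with the y axis from 0; points are libraries, long bars are means and short bars SDs of the 3 libraries of ruxolitinib, GSK-LSD1, combination and DMSO, from left to right. Lss is lowest in the combination at 634 to 738, and Acss2 is lowest after GSK-LSD1 at 116 to 164.

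When the branch was divided after the values were seen, the 7 genes up to Fdps had medians of -0.08, -0.16 and -0.17 after ruxolitinib, GSK-LSD1 and the combination, and the 11 genes from Fdft1 onward had -0.20, -0.25 and -0.36. This is a description, with no test.

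The fatty acid branch starts with the supply of acetyl-CoA. Acly (ATP citrate lyase), which makes it from citrate, fell after GSK-LSD1 (-0.18 ± 0.06 SE, adjusted p = 0.0184) and after the combination (-0.24 ± 0.06 SE, adjusted p = 0.00194). The GSK-LSD1 call for Acly was lost without GSK-LSD1 replicate 1 or 3 or DMSO replicate 3. Acss2 (acetyl-CoA synthetase, which uses acetate; chr2:155517948-155585724, plus strand) had 251, 245 and 289.5 normalised reads in the ruxolitinib libraries, 116, 164 and 141 in the GSK-LSD1 libraries, 202, 188 and 221 in the combination libraries and 209, 225 and 245 in the DMSO libraries. Only the GSK-LSD1 group was low, and its highest library lay below the lowest of the other 9. Its log2 fold change was -0.70 ± 0.12 SE, adjusted p = 0.000114 after GSK-LSD1, the largest fall of any member in that contrast, against -0.15 ± 0.12 SE, adjusted p = 0.322 after the combination and 0.21 ± 0.12 SE, adjusted p = 0.366 after ruxolitinib. Acss2 overlaps Ggt7 and Gss on the other strand.

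Me1 (malic enzyme, a source of NADPH; chr9:86581371-86695953, minus strand) had 526, 425 and 449.6 normalised reads in the ruxolitinib libraries, 418, 409 and 446 in the GSK-LSD1 libraries, 372, 404 and 399 in the combination libraries and 546, 551 and 519.9 in the DMSO libraries. All libraries with GSK-LSD1, single or combined, fell below DMSO. The change was -0.35 ± 0.08 SE, adjusted p = 0.00227 after GSK-LSD1 and -0.46 ± 0.08 SE, adjusted p = 9.47e-05 after the combination, beside -0.21 ± 0.08 SE, adjusted p = 0.175 after ruxolitinib. Fasn, the fatty acid synthase, had 7304, 8525 and 8619 normalised reads in the ruxolitinib libraries, 7282, 7948 and 7348 in the GSK-LSD1 libraries, 6241, 6521 and 6836 in the combination libraries and 8573, 8367 and 8443 in the DMSO libraries. The combination was lowest and overlapped no DMSO library, with a change of -0.37 ± 0.06 SE, adjusted p = 7.55e-05, and GSK-LSD1 gave -0.17 ± 0.06 SE, adjusted p = 0.046. The GSK-LSD1 call for Fasn was lost without any DMSO library, GSK-LSD1 replicate 1 or 3, or combination replicate 2.

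Acaca, acetyl-CoA carboxylase, the committed step, fell after the combination (-0.47 ± 0.09 SE, adjusted p = 0.000386), as did Elovl6, which elongates palmitate (-0.31 ± 0.06 SE, adjusted p = 0.000445). Neither passed after ruxolitinib or GSK-LSD1 alone. Elovl5, Fads1, Fads2 and Acsl3, which elongate, desaturate and activate long chains, passed no test against DMSO, with log2 fold changes between -0.26 (Acsl3 after ruxolitinib) and 0.06 (Fads1 after GSK-LSD1).

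Scd1 (stearoyl-CoA desaturase, which puts the double bond into oleate; chr19:44394455-44407879, minus strand) had 463, 463 and 661 normalised reads in the ruxolitinib libraries, 679, 742 and 622 in the GSK-LSD1 libraries, 507, 488 and 479 in the combination libraries and 796, 699 and 851 in the DMSO libraries. The combination and ruxolitinib libraries lay below all DMSO libraries, and GSK-LSD1 overlapped DMSO in its replicate 2. The change was -0.58 ± 0.11 SE, adjusted p = 0.00868 after ruxolitinib, the largest fall of any member there, -0.20 ± 0.11 SE, adjusted p = 0.167 after GSK-LSD1 and -0.66 ± 0.11 SE, adjusted p = 3.97e-05 after the combination. The ruxolitinib call was lost without DMSO replicate 3.

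Scd2, the paralogue that led in these cells (chr19:44293674-44306864, plus strand), had 9168, 8416 and 10469.8 normalised reads in the ruxolitinib libraries, 12920.2, 12969 and 12929 in the GSK-LSD1 libraries, 12667, 11893 and 11068 in the combination libraries and 11542, 10884 and 11681 in the DMSO libraries. Ruxolitinib was below DMSO in every library and GSK-LSD1 above it in every library. The change was -0.29 ± 0.07 SE, adjusted p = 0.0369 after ruxolitinib, 0.19 ± 0.07 SE, adjusted p = 0.0432 after GSK-LSD1 and 0.06 ± 0.07 SE, adjusted p = 0.501 after the combination. Both calls were lost without any 1 DMSO library, any 1 GSK-LSD1 library or combination replicate 2, and the ruxolitinib call also without ruxolitinib replicate 1 or 2. Between the drugs themselves, GSK-LSD1 minus ruxolitinib gave 0.47 ± 0.07 SE, adjusted p = 2.88e-05, which held in every alternative. Scd1 and Scd2 are close paralogues, and how reads matching both were counted is not given in the sources used here.

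**Figure D4:**
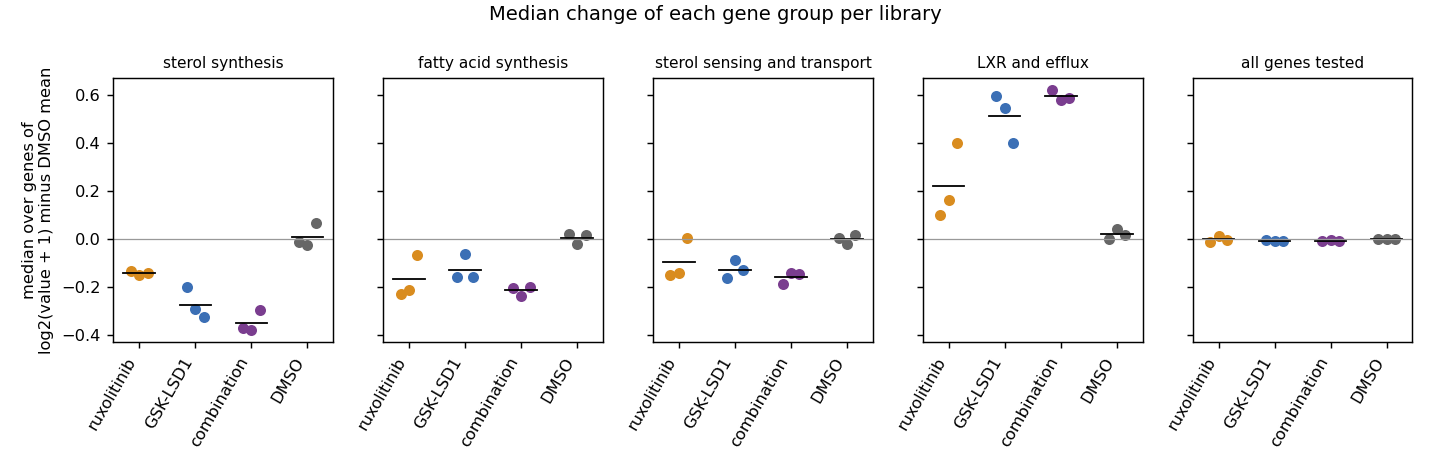
Median over the genes of each branch of log2(normalised read count + 1) minus the gene's DMSO mean (y axis) for each of the 12 libraries (points, with the mean as a bar), in 1 panel per gene group and 1 for all genes tested, by treatment on the x axis with DMSO on the right. Sterol synthesis lies between -0.38 and -0.29 in the combination libraries and between -0.03 and 0.07 in the DMSO libraries.

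Set beside each other library by library, the sterol branch was the lower of both wherever GSK-LSD1 was given. The sterol median was -0.13, -0.15 and -0.14 in the ruxolitinib libraries, -0.20, -0.29 and -0.33 in the GSK-LSD1 libraries, -0.37, -0.38 and -0.29 in the combination libraries, and -0.01, -0.03 and 0.07 in the DMSO libraries, each on the log2 scale relative to the DMSO mean. The fatty acid median was -0.23, -0.21 and -0.07 in the ruxolitinib libraries, -0.16, -0.06 and -0.16 in the GSK-LSD1 libraries, -0.20, -0.24 and -0.20 in the combination libraries, and 0.02, -0.02 and 0.02 in the DMSO libraries. Sterol minus fatty acid was below 0 in all 6 libraries with GSK-LSD1, from -0.23 to -0.04, and from -0.07 to 0.10 in the ruxolitinib libraries and -0.03 to 0.05 in the DMSO libraries. The difference between branches is a description and was not tested.

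Of the transcripts of the pathway's regulators, Insig1 alone passed a test against DMSO in the main fit. Srebf1 (chr11:60199089-60222581, minus strand) had 1752, 1973 and 1849.9 normalised reads in the ruxolitinib libraries, 1870.3, 1723 and 1816 in the GSK-LSD1 libraries, 1701, 1688 and 1852 in the combination libraries and 1795, 1753 and 1802 in the DMSO libraries. The groups overlapped, with log2 fold changes of 0.06 after ruxolitinib, 0.01 after GSK-LSD1 and -0.03 after the combination, none past the test. Srebf2 (chr15:82147181-82205379, plus strand) had 3892, 4642 and 4428 normalised reads in the ruxolitinib libraries, 4153, 4075 and 4016 in the GSK-LSD1 libraries, 3789, 3892 and 4135 in the combination libraries and 4297, 4248 and 4367 in the DMSO libraries. Both GSK-LSD1 and the combination lay below DMSO in all libraries, and the changes of -0.08 ± 0.06 SE, adjusted p = 0.363 and -0.13 ± 0.06 SE, adjusted p = 0.0961 did not pass. Corrected for GC content, Srebf2 passed lower after GSK-LSD1 (-0.12) and after the combination (-0.22), and Srebf1 after the combination (-0.13). Srebf2 also passed lower after the combination with libraries weighted by their spread (array weights, -0.15). The same held without ruxolitinib replicate 2 and combination replicate 3 (-0.16). Rai1 overlaps Srebf1 and Mir33 lies in Srebf2.

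Scap, the escort of SREBP (chr9:110333288-110384950, plus strand), had 1727, 2016 and 1758 normalised reads in the ruxolitinib libraries, 1514, 1569 and 1506 in the GSK-LSD1 libraries, 1472, 1533 and 1641 in the combination libraries and 1695, 1677 and 1664 in the DMSO libraries. No comparison with DMSO passed in the main fit, but GSK-LSD1 and the combination were lower than ruxolitinib (-0.26 ± 0.06 SE, adjusted p = 0.00441, and -0.24 ± 0.06 SE, adjusted p = 0.00578), and after GC correction both also passed lower against DMSO (-0.17 and -0.19). Both passed lower against DMSO with array weights (-0.13 and -0.14) and without ruxolitinib replicate 2 and combination replicate 3 (-0.13 and -0.16). Insig1, an SREBP target as well as its inhibitor (chr5:28071363-28078662, plus strand), had 543, 479 and 635 normalised reads in the ruxolitinib libraries, 597, 565 and 557 in the GSK-LSD1 libraries, 572, 565 and 576 in the combination libraries and 632, 628 and 777 in the DMSO libraries. All libraries with GSK-LSD1 were below DMSO, and the change passed after the combination (-0.24 ± 0.09 SE, adjusted p = 0.0377) and not after GSK-LSD1 (-0.24 ± 0.09 SE, adjusted p = 0.0517) or ruxolitinib (-0.30 ± 0.09 SE, adjusted p = 0.0955). After GC correction the combination value no longer passed (-0.17). Insig2, the other INSIG gene (chr1:121304353-121332589, minus strand), had 135, 115 and 144 normalised reads in the ruxolitinib libraries, 127, 146 and 154 in the GSK-LSD1 libraries, 162, 137 and 115 in the combination libraries and 145, 152 and 155 in the DMSO libraries. The ruxolitinib libraries lay below all DMSO libraries, while the GSK-LSD1 and combination libraries overlapped DMSO. Its log2 fold changes of -0.20 after ruxolitinib, -0.09 after GSK-LSD1 and -0.14 after the combination did not pass. Stard4, which carries sterol between membranes (chr18:33199355-33213862, minus strand), had 499, 395 and 589 normalised reads in the ruxolitinib libraries, 469.6, 494 and 476 in the GSK-LSD1 libraries, 442, 458 and 394 in the combination libraries and 636, 571 and 606 in the DMSO libraries. GSK-LSD1 and combination libraries were all below DMSO, at -0.33 ± 0.10 SE, adjusted p = 0.017 after GSK-LSD1 and -0.49 ± 0.10 SE, adjusted p = 0.000645 after the combination, and ruxolitinib replicate 3 alone overlapped DMSO (-0.31 ± 0.10 SE, adjusted p = 0.124). The GSK-LSD1 call for Stard4 was lost without GSK-LSD1 replicate 1 or 3 and without DMSO replicate 1 or 3.

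Among the LXR and efflux genes, Abcg1 and Mylip rose with GSK-LSD1. Abcg1 (a pump that passes cholesterol to lipoprotein; chr17:31057675-31117988, plus strand) had 215, 205 and 279.7 normalised reads in the ruxolitinib libraries, 319.7, 295 and 313 in the GSK-LSD1 libraries, 318, 329 and 312 in the combination libraries and 219, 180.0 and 200.0 in the DMSO libraries. All libraries with GSK-LSD1 were higher than all others, at 0.63 ± 0.11 SE, adjusted p = 0.000106 after GSK-LSD1 and 0.68 ± 0.11 SE, adjusted p = 2.53e-05 after the combination, with 0.21 ± 0.11 SE, adjusted p = 0.299 after ruxolitinib. Mylip (the ubiquitin ligase IDOL, an LXR target that removes lipoprotein receptors; chr13:45389742-45412022, plus strand) had 309, 325 and 331 normalised reads in the ruxolitinib libraries, 413, 421 and 389 in the GSK-LSD1 libraries, 395, 416 and 399.8 in the combination libraries and 270.1, 285 and 248 in the DMSO libraries. Every treated library was above DMSO, at 0.61 ± 0.08 SE, adjusted p = 4.76e-06 after GSK-LSD1 and 0.59 ± 0.08 SE, adjusted p = 3.42e-06 after the combination, and at 0.27 ± 0.08 SE, adjusted p = 0.0794 after ruxolitinib, which did not pass. Abca1, the other efflux pump, averaged 45.6 ± 8.7 normalised reads after the combination and 28.2 ± 8.15 after DMSO (SD, n = 3 each), with 0.70 ± 0.29 SE, adjusted p = 0.0549. Nr1h2, which encodes LXR beta, did not pass. Macrophage markers, a cell type rich in LXR and efflux genes, summed to 776 to 809.7 normalised reads over 6 genes in the GSK-LSD1 libraries and 837 to 861 in the combination libraries, against 349.8 to 409.95 in the ruxolitinib libraries and 380 to 417 in the DMSO libraries. Their part in the result for Abcg1 and Mylip was not tested.

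Between the drugs, few members set the combination apart from GSK-LSD1. Acss2 was higher, at 0.55 ± 0.12 SE, adjusted p = 0.0143, and Scd1 lower, at -0.47 ± 0.11 SE, adjusted p = 0.0257; 1 of 40 passed higher and 1 lower, beside 1.05% and 0.348% of all genes. In the main fit none of the 18 sterol genes passed in limma, and the sterol median was -0.07. An unadjusted p under 0.05 in limma was reached by 2 of the 18 and by 1407 of all 11484 genes tested. Sterol genes passing lower numbered 2 with array weights and 1 with GC correction. There was also 1 without combination replicate 3, and 1 without ruxolitinib replicate 2 and combination replicate 3. All genes lower numbered 183, 107, 36 and 110 in these 4 fits, in that order, instead of 40. The Acss2 call was lost without GSK-LSD1 replicate 1 or 3 or combination replicate 3, and that of Scd1 without GSK-LSD1 replicate 1 or 2 or combination replicate 1 or 2.

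Against ruxolitinib, the combination had 12 of 40 members lower and 5 higher, beside 15.6% and 16% of all genes. Those lower included Lss (-0.51 ± 0.07 SE, adjusted p = 1.95e-05), Acat2 (-0.40 ± 0.08 SE, adjusted p = 0.000942), Fdps (-0.33 ± 0.06 SE, adjusted p = 0.000519), Fasn (-0.32 ± 0.06 SE, adjusted p = 0.000676) and Scap. Those higher were Hmgcs1, Scd2 (0.35 ± 0.07 SE, adjusted p = 0.000586), Abca1, Abcg1 and Mylip. Leaving out combination replicate 1 took away 6 of these 17 calls, combination replicate 2 or ruxolitinib replicate 1 took away 5, and ruxolitinib replicate 2 or 3 took away 4, none of them Lss, Acat2, Fdps, Fasn, Scap, Scd2, Abcg1 or Mylip. Combination replicate 3 took away Acaca, and the call of Abca1 was also lost without DMSO replicate 3 or any GSK-LSD1 library. Between 11 and 18 members passed in such fits.

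GSK-LSD1 against ruxolitinib, the comparison of the 2 single drugs, gave 6 members higher and 6 lower, beside 13.6% and 11.8% of all genes. Lower after GSK-LSD1 were Acss2 (-0.90 ± 0.12 SE, adjusted p = 6.06e-06), Fdps (-0.34 ± 0.06 SE, adjusted p = 0.000519), Lss, Scap, Acat2 and Dhcr7. Higher were Scd2, Scd1 (0.38 ± 0.11 SE, adjusted p = 0.0118), Acsl3, Hmgcs1, Abcg1 and Mylip. Leaving out GSK-LSD1 replicate 2 took away 5 of the 12 calls (Acat2, Hmgcs1, Dhcr7, Scd1 and Acsl3), ruxolitinib replicate 1 took away 4, and GSK-LSD1 replicate 3 or ruxolitinib replicate 2 took away 3. Lss and Dhcr7 were lost without ruxolitinib replicate 3 and Acat2 without DMSO replicate 1, and 7 to 14 members passed in these fits.

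The interaction asked whether both drugs together differed from the sum of the single effects on the log2 scale. In limma 0 of 40 members passed, beside 0.00871% of all genes. An unadjusted p under 0.05 in limma was reached by 4 of 40 members (Hmgcs1, Mylip, Insig1 and Msmo1) and by 534 of all 11484 genes tested. For Lss the interaction was -0.04 ± 0.10 SE, adjusted p = 1, and for Scd1 0.11 ± 0.15 SE, adjusted p = 1. Values that miss the threshold do not show that the effects add up.

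Other genes of these pathways, from lists drawn up by name, moved in both directions. Of 15 other tested genes of sterol and isoprenoid synthesis, 1 rose and 2 fell after GSK-LSD1, and 2 rose and 5 fell after the combination. Over all genes tested, 17% rose and 15.5% fell after GSK-LSD1, 20.5% rose and 21.8% fell after the combination, and 1% rose and 0.627% fell after ruxolitinib. The list counts are given as a description beside those shares. Soat2, which esterifies cholesterol for storage, rose after GSK-LSD1 (0.53 ± 0.08) and after the combination (0.46 ± 0.08). Of 14 genes of SREBP processing and sensing, 3 fell after GSK-LSD1 and 4 fell and 1 rose after the combination, with Tmem97 lowest (-0.41 ± 0.08 after the combination), and Rnf145 fell after ruxolitinib (-0.36 ± 0.08). Of 14 uptake and trafficking genes, 5 rose and 2 fell after GSK-LSD1 and 7 rose and 1 fell after the combination. Lipa, the lysosomal lipase that frees cholesterol, rose (0.62 ± 0.09 and 0.65 ± 0.09) and Lrp8, a lipoprotein receptor, fell (-0.32 ± 0.07 and -0.71 ± 0.07). Among 20 other fatty acid synthesis genes, 4 rose and 5 fell after GSK-LSD1 and 4 rose and 7 fell after the combination, with Thrsp, a lipogenic protein, up by 3.02 ± 0.48 and 2.43 ± 0.48 at low levels. Of 8 other LXR targets, 4 rose and 2 fell after GSK-LSD1, and 4 rose and 1 fell after the combination. Arl4c, 1 of these, rose by 1.83 ± 0.11 after GSK-LSD1 and 1.68 ± 0.11 after the combination.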

How the data were processed

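RNA sequencing of total RNA was read from the deposited table of normalised read counts (signal per gene and library). Values look like gene counts scaled by the authors for each library, plus 1e-05. Per the submitters' processing notes, the authors' tools included STAR and DESeq2 and the builds mm10 and GRCm38, with no versions. Whole reads could not be taken as recovered because of the added constant, so no count test was run. The constant was taken off, and log2(value + 1) was modelled by treatment in limma 3.58.1 (R 4.3.3) with a variance trend and 8 residual degrees of freedom, over genes with a mean of at least 10. P-values were Benjamini-Hochberg adjusted over 11484 genes. Transcript positions are from GENCODE vM21 on GRCm38 and promoters from RefSeq GRCm38.p6. The 40 members and all lists were chosen with earlier results of these data known, so no test is given over a list. Values per library are given for members past the most comparisons, the largest rises and falls against DMSO, and the regulators; for Hmgcs1, Sqle and Fasn they were added after the values were seen. From other pathway lists, some of the genes with the smallest p among those past the test were named, and 1 is not reported here. Alternatives changed the pseudocount (0.25 or 5), the filter (none or a mean of 50), the scaling, GC correction, array weights, the groups in the fit, a replicate block and the libraries used. The procedure was tested on simulated data.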

Additional observations from a re-analysis of the deposited data

Results flagged for a closer look

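Hmgcs1 is listed here because its libraries with GSK-LSD1 lay on opposite sides of those without it, depending on whether ruxolitinib was present. All 3 GSK-LSD1 libraries (2905, 2962 and 3002) were below all 3 DMSO libraries (3007, 3011 and 3195), whereas all 3 combination libraries (3051, 2953 and 2804) were above all 3 ruxolitinib libraries (2680.2, 2368 and 2725). The difference of the 2 log2 effects was 0.24, and limma's test of this interaction did not pass (adjusted p = 0.998).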

How the results depend on the processing

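Of 77 member calls in 6 comparisons, 43 held in every alternative and no call changed direction in any. The number of members past the test after ruxolitinib against DMSO was 6, and it was 3 with no filter, 3 with only the groups compared in the fit and 0 to 9 with 1 library left out. The counts over all genes moved too. From 115 higher and 72 lower they went to 60 and 38 with no filter. They were 47 and 35 with only the groups compared, and 22 and 10 without DMSO replicate 3. For the combination against GSK-LSD1 the number of members was 2, and it was 1 with no filter, 6 with array weights, 4 with GC correction, 5 without ruxolitinib replicate 2 and combination replicate 3, and 0 to 3 with 1 library left out. All genes in this comparison split 121 higher and 40 lower. They split 95 and 27 with no filter, 244 and 183 with array weights and 179 and 107 with GC correction. Without those 2 libraries they split 160 and 110. With 1 library left out the other counts ranged from 11 to 20 (GSK-LSD1 against DMSO, 19), 18 to 24 (combination against DMSO, 21), 11 to 18 (combination against ruxolitinib, 17), 7 to 14 (GSK-LSD1 against ruxolitinib, 12), 0 to 0 (interaction, 0) and 23 to 27 (any treatment, 25). Without ruxolitinib replicate 2 and combination replicate 3, the count for GSK-LSD1 against DMSO was 22. All genes then split 2373 higher and 2505 lower, instead of 1948 and 1780. No pairing by replicate number was seen: deviations of same-numbered libraries correlated between -0.15 and 0.15 over 18 pairs. Those of other pairs correlated between -0.23 and 0.28, the highest being ruxolitinib replicate 2 with combination replicate 3. With 3 libraries per group these values cannot exclude a pairing. With the replicate number as a block, 3 members passed after ruxolitinib, and all genes split 73 higher and 39 lower. Of the 6 calls after ruxolitinib against DMSO, all were lost without DMSO replicate 3 and 5 without ruxolitinib replicate 2. Calls over all genes fell too, to 22 higher and 10 lower in the first fit and 29 and 12 in the second. All 6 calls held without ruxolitinib replicate 2 and combination replicate 3 together, where all genes split 149 higher and 168 lower. The causes were not tested.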

Other observations

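Genes that burn or store fatty acids were drawn up as separate lists, and nothing particular to them is read from their counts. Over all genes tested, 17% rose and 15.5% fell after GSK-LSD1, and 20.5% rose and 21.8% fell after the combination. Of 22 fatty acid oxidation genes, 4 rose and 3 fell after GSK-LSD1, 5 rose and 3 fell after the combination, and Etfa, which takes electrons from acyl-CoA dehydrogenases, fell after ruxolitinib (-0.32 ± 0.08 SE, adjusted p = 0.0342). Ppard, a nuclear receptor that drives oxidation, rose after GSK-LSD1 (0.67 ± 0.07 SE, adjusted p = 4.17e-07) and after the combination (0.68 ± 0.07 SE, adjusted p = 1.86e-07). Hadh, a dehydrogenase of the oxidation cycle, rose as well (0.55 ± 0.07 SE, adjusted p = 1.83e-06 after GSK-LSD1 and 0.68 ± 0.07 SE, adjusted p = 5.78e-08 after the combination), whereas Acadl, an acyl-CoA dehydrogenase, fell (-0.27 ± 0.06 SE, adjusted p = 0.000886 after GSK-LSD1 and -0.40 ± 0.06 SE, adjusted p = 8.56e-06 after the combination). Of 17 triglyceride and phospholipid genes, 3 rose and 3 fell after GSK-LSD1 and 3 rose and 5 fell after the combination. The acyltransferase Agpat5 fell (-0.47 ± 0.07 SE, adjusted p = 1.58e-05 after GSK-LSD1 and -0.57 ± 0.07 SE, adjusted p = 7.49e-07 after the combination) and Lpcat2, which remodels phosphatidylcholine, rose (0.44 ± 0.13 SE, adjusted p = 0.0129 after GSK-LSD1 and 0.93 ± 0.13 SE, adjusted p = 7.05e-06 after the combination).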
